A study of Homo sapiens with 24 samples.

Results

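The 59 genes described here encode subunits of the 5 respiratory chain complexes of the mitochondrion and are carried by the nucleus. They were chosen by symbol, from names that begin with NDUF, SDH, UQCR, COX or ATP5, and all 59 were found among the 61533 genes of the tables. Complex I is represented by 36 of them, complex II by 4, complex III by 7, complex IV by 5 and complex V by 7. The mRNA of 4 human cancer lines was sequenced. CAP wells had 60 s of Piezo-CAP, a cold atmospheric plasma made by a piezoelectric device, and Control wells of the same line had 0 s, with RNA taken at 24 h. The groups, of 3 libraries each, were Cal27 CAP and Cal27 Control, A375 CAP and A375 Control, Fadu CAP and Fadu Control, and Hth83 CAP and Hth83 Control, 24 libraries in 8 groups. Cal27 is a tongue and Fadu a hypopharynx squamous carcinoma line, A375 is a melanoma line and Hth83 is named for a thyroid carcinoma, although the labels describe all 4 as head and neck cancer. All lines are labelled wild type, and no other allele, transgene or agent is given. The medium was DMEM with 10% serum for all lines but Fadu, which was kept in MEM. Each line is 1 established culture, and the labels do not say whether replicates are separate cultures. The p-values then measure only the spread among these libraries, which may be technical.

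The respiratory chain passes electrons from NADH and succinate to oxygen and uses the energy to pump protons across the inner mitochondrial membrane. Complex I (NADH dehydrogenase) takes electrons from NADH through its N module to the Q module, where ubiquinone is reduced, and pumps protons through a proximal and a distal membrane arm. Complex II (succinate dehydrogenase) feeds electrons from the citric acid cycle without pumping, complex III passes them to cytochrome c, complex IV reduces oxygen, and complex V (ATP synthase) makes ATP from the returning protons. All complexes except II also hold subunits encoded in mitochondrial DNA, so their assembly needs both genomes. Plasma devices deliver reactive oxygen and nitrogen species to the culture, and complexes I and III are themselves known sites of superoxide production.

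Total counts were 27.9 to 49.5 M (mega) per library. In Cal27 the CAP libraries (32.3 to 35.6 M) were all larger than the Control libraries (27.9 to 30.1 M), while the ranges overlapped in the 3 other lines. The part of this difference in the Cal27 results was not tested. Between replicates the counts spread more widely than sampling alone gives (chi-square over its degrees of freedom 2.88 to 7.91), and 0 of the 37 mitochondrial genes listed had a count, so the partner subunits made in the mitochondrion were not measured. The melanocyte lineage marker SOX10 was at 1119 CPM in untreated A375 cells, a melanoma line, and at 0.0627 CPM or less in the others. The squamous epithelial marker TP63 was at 341 CPM in Cal27, 450 in Fadu and 390 in Hth83 Control libraries and at 0.0131 CPM in A375. KRT5, another squamous marker, was at 267 CPM in Cal27, 4081 in Fadu, 132 in Hth83 and 0.0524 in A375. In Hth83 the thyroid lineage factor PAX8 was at 128 CPM, beside 22.1 in Cal27, 6.38 in Fadu and 1.47 in A375. The defining thyroid marker thyroglobulin (TG) was at 0.0408 CPM in Hth83, and at 0.96 CPM in Fadu, its highest value. The leukocyte marker PTPRC was at 0.0334 CPM or less in each line. Each library averages the cells of a well, so a change in fewer cells and a change in the RNA of each cell cannot be told apart.

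The subunit mRNAs went in opposite directions in different lines. In Cal27, 49 of the 58 members tested fell after CAP and 0 rose, at a median log2 fold change of -0.32. In A375, 39 of 59 rose and 2 fell (median 0.20), in Fadu 34 rose and 7 fell (median 0.17), and in Hth83 27 rose and 4 fell (median 0.11). Here and below, a gene rose or fell when the Benjamini-Hochberg adjusted p of edgeR's quasi-likelihood test, run over all genes of that line, was under 0.05. Log2 fold changes are CAP against Control with their standard error and 3 libraries per group, and CPM are counts scaled to a common library total with TMM. A gene is called a fall or rise irrespective of size, and most changes were below 0.5 on the log2 scale.

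These shares stand against a broad response of the transcriptome. Of the 17371 genes tested in Cal27, 23.2% fell and 21.9% rose (45.1% in all), so that 49 falls and 0 rises among 58 members lie on 1 side of a response that is close to even over all genes. Of the 19604 genes tested in A375, 25.7% rose and 24.8% fell (50.5% in all). In Fadu 26.3% of 19152 rose and 27% fell (53.3% in all), and in Hth83 25.9% of 17279 rose and 24.2% fell (50.1% in all). The median change over all genes was -0.00 in Cal27, -0.02 in A375, 0.01 in Fadu and 0.003 in Hth83. The CAP and Control libraries did not overlap for 50 of 58 members in Cal27, against 52.7% of all genes, for 39 of 59 in A375 (57.9%), for 40 in Fadu (58.6%) and for 36 in Hth83 (57.2%). In Hth83 the members called in either direction, 31 of 59, were a share near the background of 50.1%, and 27 of these 31 were rises.

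**Figure D1:**
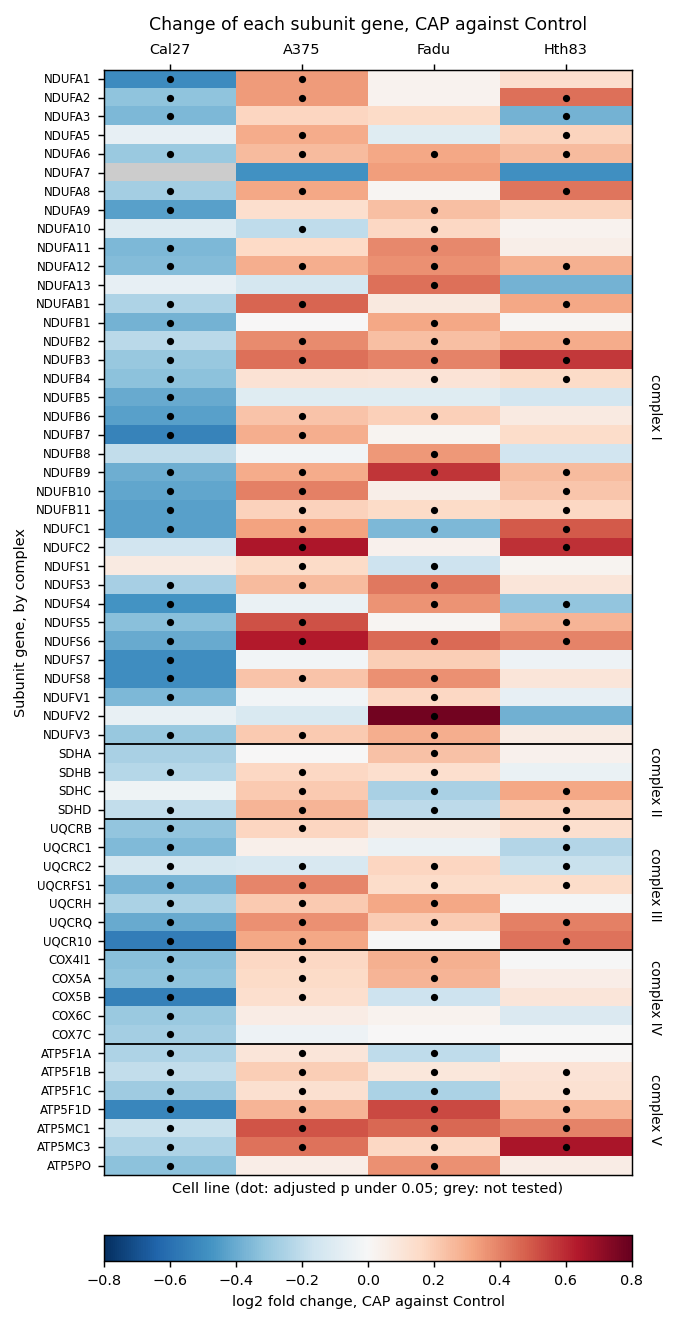
Log2 fold change, CAP against Control, of each of the 59 subunit genes (rows, by complex) in the 4 cell lines (columns), with blue for lower and red for higher after CAP. A dot marks an adjusted p under 0.05 and grey a gene not tested. The Cal27 column is blue at all 49 dots, while A375, Fadu and Hth83 are mostly red, with 2, 7 and 4 blue dots.

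The joint fit of the 24 libraries tested whether the treatment effect differed between lines. It did for 56 of the 59 members, against 56.9% of all 23642 genes tested. The exceptions were NDUFA7, NDUFB5 and NDUFB8. There were 13 members that fell in Cal27 and rose in each of the 3 other lines. Of these, 7 belong to complex I (NDUFA6, NDUFA12, NDUFB2, NDUFB3, NDUFB9, NDUFB11 and NDUFS6), 2 to complex III (UQCRFS1 and UQCRQ) and 4 to complex V (ATP5F1B, ATP5F1D, ATP5MC1 and ATP5MC3). In pairs of lines, 35 members fell in Cal27 and rose in A375, 29 fell in Cal27 and rose in Fadu, and 24 fell in Cal27 and rose in Hth83. The share of all genes with each of these patterns was not computed, so these counts have no background beside them. There were 9 members that moved in opposite directions in A375 and Fadu, where most called members rose. NDUFA10 and UQCRC2 fell in A375 and rose in Fadu, and NDUFC1, NDUFS1, SDHC, SDHD, COX5B, ATP5F1A and ATP5F1C rose in A375 and fell in Fadu. The share of all genes that did so was not computed. For NDUFA10, UQCRC2, NDUFS1, COX5B, ATP5F1A and ATP5F1C a call in A375 or Fadu was lost with other processing or without 1 library. ATP5F1C in A375 was at 0.055 with total-only scaling (adjusted p = 0.229) and 0.099 in edgeR's joint fit (adjusted p = 0.0653). Only NDUFA7 was called in no line, at -0.48 in A375, 0.33 in Fadu and -0.49 in Hth83, and too low to be tested in Cal27.

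The deposited TPM divide the counts by 1 length per gene. That length followed the span of the gene on the genome, introns included, and not its exonic bases. In Cal27 Control libraries UQCRQ had 38 CPM and 196 TPM, and NDUFA12 had 37.5 CPM and 3.95 TPM. An order of genes by TPM is not an order of mRNA levels. The TPM of 1 gene also depend on the lengths of the other genes in a library. Between lines they can therefore differ from CPM. UQCRC1 had 229 TPM and 192 CPM in A375 Control libraries, and 189 TPM and 198 CPM in Cal27 Control libraries. Over the 12 untreated libraries the members had a median of 42.2 TPM and ran from 0.506 TPM for NDUFA7 to 1464 TPM for ATP5F1B, the catalytic beta subunit of ATP synthase. There were 20 members over 100 TPM and 7 under 5 TPM. After ATP5F1B came NDUFV1, the subunit of complex I that binds NADH and FMN, at 528 TPM, then COX7C at 495, COX4I1 at 433 and COX5B at 373 TPM. NDUFV1 also showed how the lines differ. Untreated cells had 934 ± 9.33 TPM in Fadu, 500 ± 19.3 in Cal27, 358 ± 14.3 in Hth83 and 322 ± 2.17 in A375 (SD, n = 3). In CPM the order was the same, at means of 486, 302, 181 and 155. ATP5F1D, the delta subunit in the central stalk of ATP synthase, was highest in Cal27 (616 ± 44.2 TPM) and lowest in Fadu (174 ± 11.6 TPM). In CPM too Cal27 was highest (166, 180 and 153) and Fadu lowest (42.5, 41.7 and 37.3). The protein complexes hold most subunits in fixed proportion, but no protein was measured here. The spread of TPM within a complex also holds that of the gene lengths and cannot be read as a spread of protein.

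**Figure D2:**
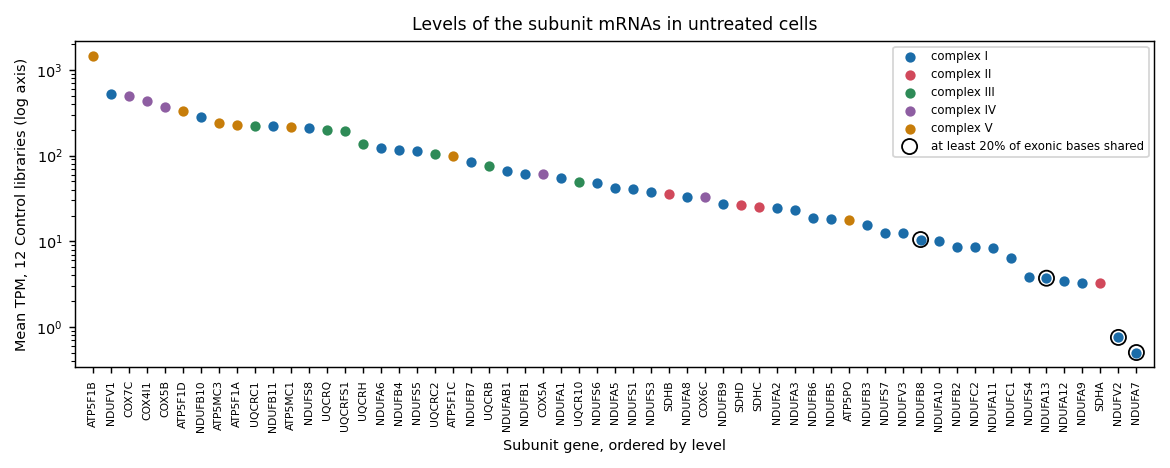
Mean TPM of each subunit gene over the 12 Control libraries (log axis), ordered by TPM and coloured by complex. The length behind the TPM includes introns, so the order is not one of mRNA levels. Black circles mark the 4 genes that share at least 20% of their exonic bases with another gene on the same strand, of which NDUFV2 and NDUFA7 are the lowest of all.

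Several of the lowest members share exons or have near-identical copies. The 4 members that share at least 20% of their exonic bases with another gene on the same strand (NDUFA7, NDUFA13, NDUFB8 and NDUFV2) had a median of 2.24 TPM, against 49.2 TPM for the 55 others. SDHA had 7915 counts over all 24 libraries, while its pseudogene copies SDHAP1, SDHAP4 and SDHAP3 had 21205, 21307 and 8482. UQCRHL, a copy of UQCRH, had 4391 counts beside 115620 for UQCRH. How reads were split between such copies, and whether strand was used, is not stated in the sources at hand. The values of NDUFA7, NDUFA13, NDUFB8, NDUFV2 and SDHA are therefore uncertain, and the part of shared sequence in them was not tested. NDUFA1, NDUFB2, NDUFB11 and NDUFS7 share 44.5%, 35.1%, 44.9% and 49.1% of their exonic bases with genes on the opposite strand, such as RNF113A, BRAF and RBM10 for the first 3, and without strand the reads of such pairs cannot be told apart.

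Summed over the 59 genes, the deposited TPM were 6696, 6674 and 6742 in the Cal27 CAP libraries, against 7200, 7260 and 7068 in the Cal27 Control libraries. In A375 the sums were 7739, 7559 and 7621 TPM after CAP, against 7149, 6898 and 7102 TPM in Control libraries. Fadu gave 8661, 8577 and 8653 TPM after CAP, against 7756, 7654 and 7713 TPM in Control libraries, and Hth83 8555, 8376 and 8338 TPM, against 7483, 7441 and 7422 TPM. The sum was thus lower in each Cal27 CAP library than in any Cal27 Control library, and higher in each CAP library of the 3 other lines. These sums are not shares of all transcripts, since the length behind the TPM includes introns. Summed CPM, which use no gene length, went the same way. Their means after CAP and in Control libraries were 4189 and 5080 in Cal27 and 5095 and 4492 in A375. They were 5744 and 5296 in Fadu and 5463 and 5189 in Hth83. A few members with high values weigh most in such sums, so the per-gene changes are described complex by complex.

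**Figure D3:**
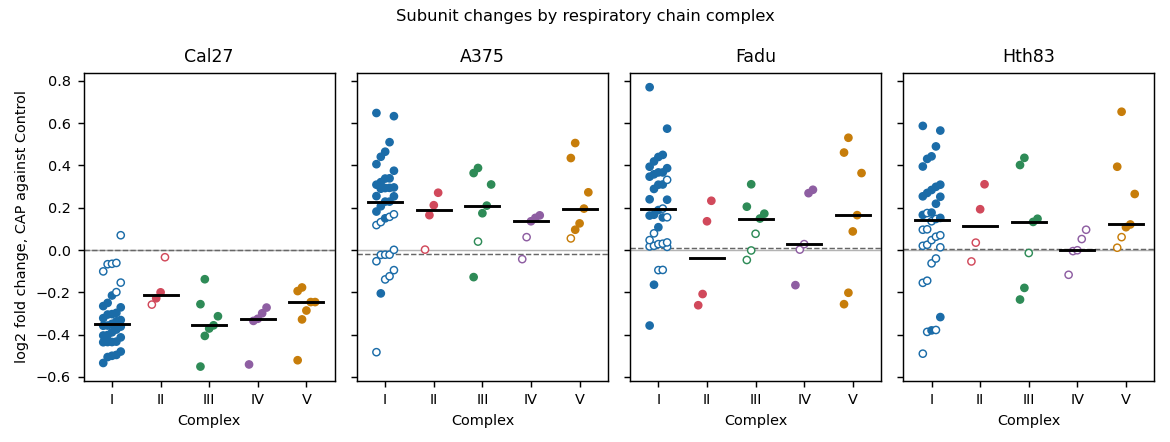
Log2 fold change, CAP against Control, of the tested subunit genes by complex (x axis) in each cell line (panels). Filled points had an adjusted p under 0.05, the black bar is the median of the complex and the dashed line the median of all genes tested. The medians of all 5 complexes are below 0 in Cal27 on this scale (-0.36 to -0.21, with complex II at 0.02 on log2(TPM + 1)), while complexes II and IV lie at -0.04 and 0.03 in Fadu and complex IV at -0.00 in Hth83.

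Complex I fell in Cal27 throughout its modules. Of its 35 members tested 28 fell and 0 rose, at a median log2 change of -0.35, with medians of -0.32 in the N module, -0.38 in the Q module, -0.35 in the proximal and -0.39 in the distal membrane arm. In A375, 22 of 36 rose and 1 fell (median 0.23), with 6 of 10 in the N module, 3 of 4 in the Q module, 5 of 10 in the proximal and 7 of 11 in the distal arm among the rises. In Fadu 21 rose and 2 fell (median 0.19). There the medians were 0.32 in the N module and 0.28 in the Q module, beside 0.10 in the proximal and 0.19 in the distal arm. In Hth83 16 rose and 2 fell (median 0.14), and the N module had 4 rises and 1 fall among 10 at a median of 0.04. The differences between modules were not tested.

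Among the core subunits that carry the electrons, NDUFV1 had 240, 233 and 235 CPM in the CAP libraries, against 312, 307 and 287 CPM in the Control libraries of Cal27. The CAP libraries lay below all Control libraries, at a log2 change of -0.36 ± 0.04 (adjusted p = 1.84e-09). In Fadu the same gene had 545, 526 and 562 CPM in the CAP libraries, against 493, 485 and 480 CPM in the Control libraries, a rise of 0.16 ± 0.03 on the log2 scale (adjusted p = 2.58e-06). In A375 (-0.02 ± 0.04) and Hth83 (-0.06 ± 0.05) it did not pass the test. NDUFS8, which holds 2 iron-sulfur clusters of the Q module, had 108, 104 and 109 CPM in the CAP libraries, against 147, 155 and 151 CPM in the Control libraries of Cal27, again without overlap, at -0.50 ± 0.04 (adjusted p = 1.51e-11). In Fadu NDUFS8 had 141, 129 and 141 CPM in the CAP libraries, against 105, 105 and 108 CPM in the Control libraries and rose by 0.37 ± 0.04 (adjusted p = 4.29e-13). It rose in A375 as well (0.23 ± 0.07) and was at 0.10 ± 0.05 in Hth83, which did not pass. NDUFS1, the largest subunit of the N module, was the only one of the 58 members tested with a positive log2 change in Cal27, 0.07 ± 0.04, which did not pass the test (adjusted p = 0.159). In A375 NDUFS1 had 151, 148 and 153 CPM in the CAP libraries, against 135, 142 and 132 CPM in the Control libraries, at 0.15 ± 0.04. In Fadu it had 143, 152 and 141 CPM in the CAP libraries, against 163, 165 and 160 CPM in the Control libraries, at -0.16 ± 0.04. These calls were opposite in sign, and both calls were lost when libraries were scaled by their total only (0.079 and -0.06, adjusted p = 0.0829 and 0.176).

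Several accessory subunits fell in Cal27 and rose in the 3 other lines. NDUFS6 is a zinc-binding accessory subunit of the N module. The gene (ENSG00000145494.12, GRCh38 chr5:1801400-1816605, plus strand) had 67.6, 55.4 and 61.6 CPM in the CAP libraries, against 79.2, 81.4 and 83.7 CPM in the Control libraries of Cal27 (-0.40 ± 0.06, adjusted p = 7.69e-07). In A375 it had 52.7, 46.8 and 47.3 CPM in the CAP libraries, against 34.6, 27 and 32.6 CPM in the Control libraries (0.63 ± 0.07, adjusted p = 3.31e-08). The groups did not overlap in either line, and the rises in Fadu (0.45 ± 0.05) and Hth83 (0.40 ± 0.06) also passed the threshold. The treatment effect on NDUFS6 differed between lines at an adjusted p of 7.7e-13. NDUFB3, a small accessory subunit of the distal arm, had 20.6, 17.4 and 19.9 CPM in the CAP libraries, against 13.8, 13.5 and 11.8 CPM in the Control libraries of Hth83, a rise of 0.56 ± 0.10 on the log2 scale (adjusted p = 1.34e-05). It had 17.6, 19.2 and 20 CPM in the CAP libraries, against 26.2, 22.4 and 21.8 CPM in the Control libraries of Cal27, a log2 change of -0.30 ± 0.08 that was no longer past the threshold without the Control replicate 1 (-0.217, adjusted p = 0.0587).

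NDUFB9, another distal arm subunit, had the smallest interaction p of complex I (8.62e-17). In Fadu it had 153, 143 and 157 CPM in the CAP libraries, against 104, 99.2 and 101 CPM in the Control libraries, so every CAP library exceeded every Control library, at 0.57 ± 0.04 (adjusted p = 5.23e-23). In Cal27 it had 64, 59.3 and 60.6 CPM in the CAP libraries, against 77, 81.2 and 82.6 CPM in the Control libraries, at -0.39 ± 0.05 (adjusted p = 1.21e-07). NDUFC1, a single-span subunit of the proximal arm, was called in opposite directions in Fadu and A375. It had 13.1, 11.9 and 10.9 CPM in the CAP libraries, against 14.8, 14.9 and 16.2 CPM in the Control libraries of Fadu, at -0.36 ± 0.10 (adjusted p = 0.00106). In A375 it had 25, 24.7 and 25 CPM in the CAP libraries, against 20.9, 19.2 and 19.6 CPM in the Control libraries, at 0.32 ± 0.07 (adjusted p = 0.000379). Fadu and A375 thus differ in sign for this gene, and it fell in Cal27 (-0.43 ± 0.08) and rose in Hth83 (0.49 ± 0.13). NDUFC1 shares 18.5% of its exonic bases with MGARP on the same strand, which had 66 counts in all.

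Members of complex I that went against most of their line were few. In A375 NDUFA10, an accessory subunit at the matrix side of the membrane arm, had 57.4, 62.4 and 59.8 CPM in the CAP libraries, against 67.7, 73.2 and 66.4 CPM in the Control libraries (-0.20 ± 0.05, adjusted p = 0.00117). In Hth83 NDUFS4, an accessory subunit whose loss is known from Leigh syndrome, had 48, 48.7 and 51.2 CPM in the CAP libraries, against 62.8, 56.7 and 65.1 CPM in the Control libraries (-0.32 ± 0.06, adjusted p = 8.26e-05). NDUFS4 also fell in Cal27 (-0.48 ± 0.07) but rose in Fadu (0.36 ± 0.09). NDUFA3, a small subunit of the proximal arm, had 10.9, 10.7 and 9.57 CPM in the CAP libraries, against 16.2, 12.8 and 11.4 CPM in the Control libraries of Hth83. It fell there (-0.38 ± 0.12) and in Cal27 (-0.36 ± 0.11), but neither call is stable. Without the Control replicate 1 its change was -0.225 in Hth83 (adjusted p = 0.151) and -0.251 in Cal27 (adjusted p = 0.113), and without the CAP replicate 2 it was -0.293 in Cal27 (adjusted p = 0.0677).

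The highest change of any member in Fadu was that of NDUFV2, an iron-sulfur subunit of the N module with few counts, which had 4.15, 5.56 and 5.66 CPM in the CAP libraries, against 2.78, 3.12 and 3.13 CPM in the Control libraries (0.77 ± 0.17, adjusted p = 6.3e-05). NDUFA13, also known as GRIM-19, and NDUFB8 rose there too (0.44 ± 0.19 and 0.35 ± 0.14, adjusted p = 0.0483 and 0.0357), but their CAP and Control libraries overlapped. None of these 3 passed in any other line, and for NDUFB8 the difference between lines was not past the threshold (interaction adjusted p = 0.138). NDUFV2, NDUFA13 and NDUFB8 are among the 4 members with shared exons, at low counts.

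The other members of complex I mostly followed their line. NDUFA6, NDUFA12, NDUFB2 and NDUFB11, accessory subunits of the N module and the distal arm, had changes of -0.21 to -0.43 in Cal27 and rose by 0.15 to 0.38 in the 3 other lines. In Cal27 the 7 members that did not pass the test were NDUFA5, NDUFA10, NDUFA13, NDUFB8, NDUFC2, NDUFS1 and NDUFV2, and the deepest fall of the complex was that of NDUFB7 (-0.53 ± 0.06), a distal arm subunit on the side of the intermembrane space. In A375 the highest changes were those of NDUFC2 (0.65 ± 0.13), NDUFS6, NDUFS5 (0.51 ± 0.05) and NDUFAB1 (0.47 ± 0.05), the mitochondrial acyl carrier protein. NDUFC2 also rose in Hth83 (0.59 ± 0.13), while in Fadu, at 0.04 ± 0.14, it did not pass. Of the others, NDUFA1, NDUFA2, NDUFA5, NDUFA8, NDUFB7 and NDUFB10 were called in A375 and not in Fadu, at log2 changes between 0.29 and 0.41 in A375 and between -0.10 and 0.05 in Fadu. In the opposite way NDUFA9, NDUFA11, NDUFB1 and NDUFB4 rose in Fadu, by 0.11 to 0.39, and did not pass in A375. NDUFB6, NDUFS3 and NDUFV3 rose in both, and none of the 3 passed in Hth83. NDUFB5 and NDUFS7 were called in Cal27 only (-0.40 and -0.50), but the difference between lines was not past the threshold for NDUFB5 (interaction adjusted p = 0.312).

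Complex II, the enzyme shared with the citric acid cycle, did not move as a unit. SDHB, the iron-sulfur subunit, fell in Cal27 and rose in A375 and Fadu like most members, whereas SDHC and SDHD, the membrane anchors that bind ubiquinone, rose in A375 and Hth83 and fell in Fadu. The complex had 2 falls among 4 in Cal27 (median -0.21, but 0.02 on log2(TPM + 1)), 3 rises in A375 (0.19), 2 rises and 2 falls in Fadu (-0.04, but 0.07 when scaled by library total) and 2 rises in Hth83 (0.11). SDHC (ENSG00000143252.16, GRCh38 chr1:161314257-161375340, plus strand) had 76.2, 71.8 and 79 CPM in the CAP libraries, against 91.8, 87.9 and 92.4 CPM in the Control libraries of Fadu, at -0.26 ± 0.05 (adjusted p = 6.08e-07). In A375 it had 162, 157 and 153 CPM in the CAP libraries, against 133, 134 and 142 CPM in the Control libraries, at 0.21 ± 0.04 (adjusted p = 3.84e-05). The groups were apart in both lines, in opposite order. In Hth83 SDHC had 70.4, 71.9 and 69.9 CPM in the CAP libraries, against 54.9, 56.1 and 60.2 CPM in the Control libraries, at 0.31 ± 0.06 (adjusted p = 3.13e-05), and in Cal27 it was at -0.03 ± 0.05 and did not pass. On log2(TPM + 1) its change in Cal27 was instead 0.19 (adjusted p = 0.0287 by limma), where all genes had a median of 0.20.

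SDHD had 87, 84.6 and 80.1 CPM in the CAP libraries, against 95.4, 98.6 and 96.7 CPM in the Control libraries of Fadu, a log2 change of -0.21 ± 0.04 (adjusted p = 3.15e-05), and rose in A375 (0.27 ± 0.05) and Hth83 (0.19 ± 0.05). Its fall in Cal27 (-0.20 ± 0.08, adjusted p = 0.0374) was lost by DESeq2 (adjusted p = 0.0771), without the Control replicate 1 or 2 (-0.171 and -0.154) and without the CAP replicate 1 or 3 (-0.123 and -0.193). SDHB had 97.2, 91.4 and 98.9 CPM in the CAP libraries, against 109, 108 and 119 CPM in the Control libraries of Cal27 (-0.23 ± 0.05, adjusted p = 0.000149). It rose in A375 (0.17 ± 0.04) and in Fadu (0.14 ± 0.05), where SDHC and SDHD fell. That rise in Fadu was 0.102 without the Control replicate 3 (adjusted p = 0.14) and 0.118 without the CAP replicate 2 (adjusted p = 0.0696). SDHA, the flavoprotein that oxidises succinate, was called in Fadu alone, where it had 15.5, 16.4 and 15.4 CPM in the CAP libraries, against 13.9, 13.8 and 12.6 CPM in the Control libraries (0.23 ± 0.09, adjusted p = 0.0272). Its counts are few beside those of its copies, and without the same 2 libraries the call was lost as well (0.193 and 0.204, adjusted p = 0.12 and 0.0996).

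All 7 members of complex III fell in Cal27, with a median of -0.36. In A375 5 rose and 1 fell (median 0.21), in Fadu 4 rose (0.15, but 0.03 with the length trend removed) and in Hth83 4 rose and 2 fell (0.13). UQCRC1 and UQCRC2, the core proteins on the matrix side that resemble mitochondrial processing peptidase, fell in Hth83, where 4 other members rose. UQCRC1 (ENSG00000010256.11, GRCh38 chr3:48599002-48610976, minus strand) had 232, 232 and 216 CPM in the CAP libraries, against 270, 261 and 269 CPM in the Control libraries of Hth83, at -0.23 ± 0.04 (adjusted p = 6.08e-05), and 156, 160 and 149 CPM in the CAP libraries, against 202, 199 and 194 CPM in the Control libraries of Cal27, at -0.36 ± 0.04 (adjusted p = 4.78e-09). The CAP libraries lay below the Control libraries in both lines, and in A375 (0.04 ± 0.04) and Fadu (-0.05 ± 0.04) the change did not pass. UQCRC2 had 240, 243 and 246 CPM in the CAP libraries, against 281, 269 and 275 CPM in the Control libraries of Hth83, at -0.18 ± 0.04 (adjusted p = 0.000832). It fell in Cal27 (-0.14 ± 0.04) and A375 (-0.13 ± 0.04) and rose in Fadu (0.17 ± 0.03), the reverse of what most members did in A375. Its fall in A375 was lost without the Control replicate 2 (-0.105, adjusted p = 0.0737) or the CAP replicate 1 (-0.081, adjusted p = 0.0822), which leaves 1 fall, that of NDUFA10, in A375.

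UQCRFS1, the Rieske iron-sulfur protein that hands electrons towards cytochrome c, had 103, 101 and 101 CPM in the CAP libraries, against 75, 76.6 and 81.5 CPM in the Control libraries of A375, at 0.39 ± 0.04 (adjusted p = 1.12e-08). In Cal27 it had 79.4, 86.1 and 80.1 CPM in the CAP libraries, against 107, 103 and 108 CPM in the Control libraries, at -0.37 ± 0.05 (adjusted p = 5.73e-08). The gene also rose in Fadu (0.15 ± 0.04) and Hth83 (0.15 ± 0.05). The rise in Hth83 was 0.126 without the Control replicate 2 (adjusted p = 0.0596). UQCRQ, a small membrane subunit, had 28.5, 28.7 and 28.8 CPM in the CAP libraries, against 38.6, 39 and 36.5 CPM in the Control libraries of Cal27, at -0.41 ± 0.06 (adjusted p = 3.46e-06). In Hth83 it had 35.6, 29.5 and 33.1 CPM in the CAP libraries, against 24.2, 24.9 and 25.3 CPM in the Control libraries, at 0.40 ± 0.08 (adjusted p = 7.03e-05). UQCRQ rose in A375 (0.36 ± 0.07) and Fadu (0.20 ± 0.06) too. Among the rest, UQCR10 had the deepest fall of all members in Cal27 (-0.55 ± 0.10) and a rise of 0.44 ± 0.11 in Hth83, UQCRB rose in A375 and Hth83 (0.17 and 0.13), and UQCRH, the hinge protein, rose in A375 and Fadu (0.21 and 0.31).

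In complex IV the 5 members fell together in Cal27 (median -0.33). In A375 3 rose (median 0.14), in Fadu 2 rose and 1 fell (0.03, or -0.02 with the length trend removed), and in Hth83 0 of 5 passed the test, with changes between -0.12 and 0.10 by edgeR; 1 of them, COX6C, had groups that did not overlap. COX4I1, the common isoform of the subunit that responds to ATP, had 232, 203 and 225 CPM in the CAP libraries, against 276, 274 and 282 CPM in the Control libraries of Cal27, at -0.34 ± 0.04 (adjusted p = 6.21e-08). In Fadu it had 350, 331 and 338 CPM in the CAP libraries, against 282, 274 and 281 CPM in the Control libraries, at 0.28 ± 0.03 (adjusted p = 1.17e-12). In Hth83 it had 329, 328 and 324 CPM in the CAP libraries, against 331, 319 and 332 CPM in the Control libraries, so the groups overlapped and the change was -0.001 ± 0.04.

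COX5B (ENSG00000135940.7, GRCh38 chr2:97646040-97648383, plus strand), a zinc-binding subunit on the matrix side, had 60.7, 64.4 and 66.5 CPM in the CAP libraries, against 91.2, 101 and 86.9 CPM in the Control libraries of Cal27, a log2 change of -0.54 ± 0.05 (adjusted p = 5.64e-10). This was the second deepest fall of all members in that line. Its calls in A375 (0.14 ± 0.05) and Fadu (-0.17 ± 0.06) were lost when single libraries were left out. In Fadu the change was -0.096 without the Control replicate 3 (adjusted p = 0.258) and -0.11 without the CAP replicate 2 (adjusted p = 0.151). In A375 it was 0.071 without the Control replicate 2 (adjusted p = 0.299), and it was also lost without the Control replicate 3 (0.152), the CAP replicate 1 (0.115) or the CAP replicate 3 (0.132). COX5A had 92.7, 85 and 89 CPM in the CAP libraries, against 74.6, 72.2 and 74.5 CPM in the Control libraries of Fadu, without overlap. COX5A fell in Cal27 (-0.33 ± 0.05) and rose in Fadu (0.27 ± 0.05), while its rise in A375 (0.15 ± 0.05) was 0.104 without the Control replicate 2 (adjusted p = 0.0975). COX6C (-0.30) and COX7C (-0.27) were called in Cal27 only (interaction adjusted p = 0.0051 and 0.00157).

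Complex V fell in Cal27 in all 7 members (median -0.25) and rose in 6 of 7 in A375 (median 0.20). In Fadu 5 rose and 2 fell (0.17, but 0.05 with the length trend removed), and in Hth83 5 rose and 0 fell (0.12). The subunits of the catalytic F1 part moved in both directions in Fadu. ATP5F1A, the alpha subunit of the catalytic head, had 348, 345 and 332 CPM in the CAP libraries, against 391, 387 and 400 CPM in the Control libraries of Fadu, at -0.20 ± 0.03 (adjusted p = 3.93e-08). ATP5F1C, the gamma subunit that turns inside the head, had 121, 124 and 118 CPM in the CAP libraries, against 146, 144 and 144 CPM in the Control libraries, at -0.26 ± 0.04 (adjusted p = 2e-08). Both lay below the Control libraries. ATP5F1D had 57.6, 58.4 and 59.8 CPM in the CAP libraries, against 42.5, 41.7 and 37.3 CPM in the Control libraries, at 0.53 ± 0.06 (adjusted p = 3.59e-14), and ATP5F1B, the catalytic beta subunit, was at 0.09 ± 0.03. The 4 mRNAs of the F1 part listed here therefore did not move together in Fadu, although they fell together in Cal27 (-0.25, -0.19, -0.29 and -0.52 for ATP5F1A, ATP5F1B, ATP5F1C and ATP5F1D).

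ATP5F1B is the most abundant member by TPM. It had 1065, 1026 and 1034 CPM in the CAP libraries, against 900, 919 and 908 CPM in the Control libraries of A375, at 0.20 ± 0.03 (adjusted p = 3.75e-06), and 787, 785 and 789 CPM in the CAP libraries, against 908, 910 and 883 CPM in the Control libraries of Cal27, at -0.19 ± 0.03 (adjusted p = 3.73e-06). Its rise in Hth83 (0.11 ± 0.04) lost its call when any one of 5 of the 6 libraries was left out, all but CAP replicate 2, at 0.093 to 0.111. The rise in Fadu was 0.079 without the Control replicate 3 (adjusted p = 0.052). For ATP5F1C in Hth83 (0.12 ± 0.04) the call was lost without the Control replicate 2 or 3 (0.112 and 0.113) or the CAP replicate 3 (0.085), and for ATP5F1A in A375 (0.10 ± 0.03) without the Control replicate 1 (0.086, adjusted p = 0.0736). ATP5PO, the subunit of the peripheral stalk once called OSCP, fell in Cal27 (-0.33 ± 0.10) and rose in Fadu (0.36 ± 0.07).

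ATP5MC1 and ATP5MC3 encode the same mature c subunit, which forms the proton-driven ring, with different import sequences. ATP5MC3 had the smallest interaction p of all members (8.41e-17). The gene (ENSG00000154518.10, GRCh38 chr2:175176258-175184607, minus strand) had 104, 100 and 98.2 CPM in the CAP libraries, against 64.8, 63.3 and 64.1 CPM in the Control libraries of Hth83, the largest rise of any member in that line (0.65 ± 0.05, adjusted p = 7.4e-12). In A375 it had 119, 114 and 115 CPM in the CAP libraries, against 88.7, 86 and 82.5 CPM in the Control libraries, at 0.43 ± 0.04 (adjusted p = 5.91e-10). The CAP libraries were above all Control libraries in both lines, and in Cal27 (-0.25 ± 0.04) the gene fell. ATP5MC1 had 91.8, 86.1 and 88.7 CPM in the CAP libraries, against 66.5, 62.7 and 64.5 CPM in the Control libraries of Fadu, at 0.46 ± 0.05 (adjusted p = 5.41e-15), where ATP5MC3 rose by 0.17 ± 0.04. ATP5MC1 rose in A375 (0.51 ± 0.06) and Hth83 (0.39 ± 0.06) as well. Its fall in Cal27 (-0.18 ± 0.05) was lost without the Control replicate 2 (-0.147, adjusted p = 0.0515) or the CAP replicate 2 (-0.146, adjusted p = 0.0597).

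The share of ATP5MC3 in the summed TPM of the pair can be followed between the groups of a line. Its size does not give the proportion of the 2 mRNAs. The length behind the TPM, which includes introns, was 12.9 for ATP5MC3 and 7.36 for ATP5MC1 in relative units. In Hth83 the share was 46.9%, 47.4% and 49.5% after CAP, against 43.6%, 42.9% and 43.8% in Control libraries. In Fadu it was 45%, 46.3% and 45.7% after CAP, against 50.9%, 50.4% and 50.9%. The balance thus moved towards ATP5MC3 in Hth83 and towards ATP5MC1 in Fadu, with no overlap of groups in either. In Cal27 it was 54.8% ± 1.18 after CAP and 55.9% ± 1.03 in Control libraries, and in A375 57.2% ± 1.26 and 58.4% ± 0.882 (SD, n = 3 each), so that these groups lay within about 1 SD of each other. A two-sided exact permutation test over the 3 against 3 libraries gave p = 0.1 in Hth83 and in Fadu, the smallest it allows with these numbers, 0.2 in Cal27 and 0.3 in A375, so that no line could reach the threshold of 0.05.

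**Figure D4:**
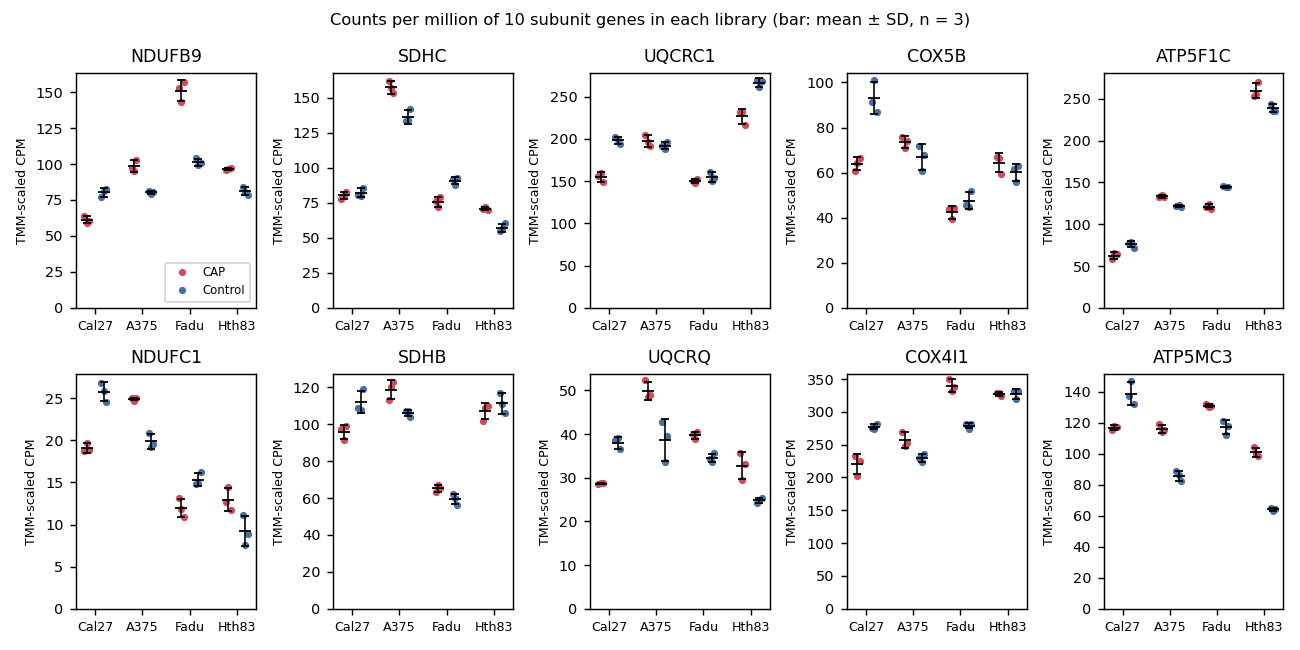
TMM-scaled CPM in each library for 10 subunit genes, 2 of each complex (columns), with CAP in red to the left of Control in blue for each line, and the mean ± SD (n = 3) as black bars. SDHC, NDUFC1, COX5B and ATP5F1C are lower after CAP than in Control in Fadu and higher in A375, and UQCRC1 is lower in Hth83 and Cal27.

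Over all genes, the changes followed gene length in Cal27 and Fadu. The length is the one behind the TPM, which follows the genomic span with introns and is not a transcript length. By it, 44 of the 59 members were shorter than the median protein-coding gene (median percentile 28.2). In Cal27 the changes of all genes followed length, with medians of -0.11, -0.12, -0.04, 0.07 and 0.15 in 5 equal groups of genes from the shortest to the longest. In Fadu the short genes were higher and the long ones lower (0.11, 0.13, 0.04, -0.04 and -0.16). A375 had -0.11, 0.04, 0.05, 0.002 and -0.09 and Hth83 -0.04, 0.04, 0.02, -0.00 and -0.01, with no single order. Across the members, which share their libraries, Pearson's r between length and log2 change was 0.40 in Cal27, -0.25 in A375, -0.01 in Fadu and -0.19 in Hth83. With a loess trend over all genes removed, the members' median was -0.24 in Cal27, 0.20 in A375, 0.10 in Fadu and 0.10 in Hth83.

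The values also depend on the scale. On log2(TPM + 1), tested by limma, 13 of 57 members were lower and 2 higher in Cal27, where 39.4% of all genes were called. Of those called, 86.7% of members and 16.6% of all genes were lower, against 100% and 51.5% by edgeR. The members' median was -0.09 where that of all genes was 0.20. The difference between members and all genes was -0.29 on this scale and -0.32 by edgeR. Complexes I, III and IV had medians of -0.11, -0.12 and -0.09 on that scale in Cal27 and complexes II and V of 0.02 and -0.01, so the sign for complex II in Cal27 holds only relative to the other genes. Among the members described library by library, the Cal27 calls of NDUFA3, NDUFB3, NDUFS4, NDUFS6, SDHB, SDHD, UQCRC2, UQCRFS1, COX4I1, COX5A, ATP5F1A, ATP5F1B, ATP5F1C, ATP5MC1 and ATP5MC3 were lost on log2(TPM + 1), and SDHB, SDHD, UQCRC2, ATP5F1B and ATP5MC1 were then above 0 by 0.008 to 0.096. Over all members 12 had the other sign in Cal27 on log2(TPM + 1), of which 6 had been called by edgeR, these 5 and NDUFB2 (0.021). None of the 6 was called on that scale, and 3 of them, NDUFB2, ATP5F1B and ATP5MC1, are among the 13 members that fell in Cal27 and rose in the 3 other lines by edgeR. The 6 not called by edgeR were NDUFA5, NDUFA10, NDUFA13, NDUFB8, NDUFC2 and SDHC. The calls of NDUFB9, NDUFC1, NDUFS8, NDUFV1, UQCRC1, UQCRQ, COX5B and ATP5F1D in Cal27 held on that scale. Scaled by library total alone, 43 members were lower and 1 higher (median -0.24, all genes 0.08). Of all genes 45.1% were then called, and 37.6% of these were lower. In A375 20 were higher and 4 lower on log2(TPM + 1), or 16.7% lower of those called against 4.88% by edgeR, at a median of 0.10 where all genes were at -0.08. Of all genes in A375 35.3% were called on that scale, and 59% of these were lower. Scaled by library total, the medians of complexes I to V in A375 were 0.16, 0.12, 0.14, 0.06 and 0.12, where all genes were at -0.09. The A375 calls of NDUFS1, NDUFS8, SDHB, UQCRQ, COX4I1, COX5A, COX5B, ATP5F1A, ATP5F1C and ATP5F1D, the Fadu calls of NDUFA10, NDUFS1, NDUFS4, SDHA, SDHB and COX5B and the Hth83 calls of NDUFA3 and NDUFS4 were lost on it too. In Fadu the total-only scale gave 42 higher and 5 lower at a median of 0.27 (all genes 0.11), and complex II then had a median of 0.07 in place of -0.04. Of all genes 54.8% were called there, and 38.2% of these were lower. In Hth83 the medians ran from 0.10 to 0.18 over the scalings shown.

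**Figure D5:**
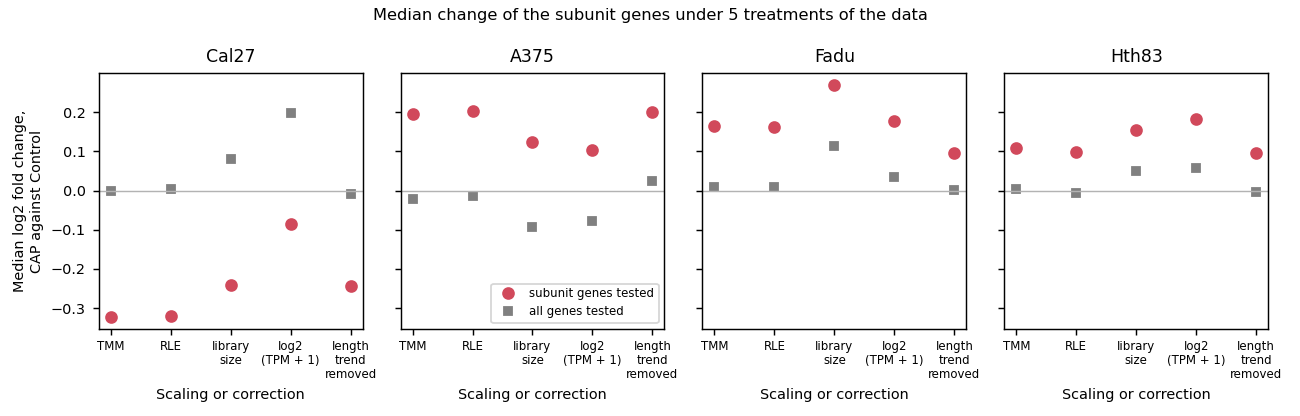
Median log2 fold change, CAP against Control, of the tested subunit genes (red) and of all genes tested (grey) in each line under TMM, RLE, library total only, log2(TPM + 1) with limma, and after removal of the length trend. The subunit genes lie below all genes in Cal27 and above them in the 3 other lines under each of the 5.

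Letters matching the binding preferences of NRF1 and of ETS factors such as GABP were looked for on both strands, upstream of the RefSeq starts. Both are known regulators of respiratory chain genes. The window was the 250 bases before the annotated start, taken from RefSeq (GRCh38.p14), where 49 of the 59 members had an entry. The consensus of NRF1, whose matches are among the sequences printed, was in 22.4% of the 49, against 9.01% of the 13816 tested genes with an entry and 5.53% of all 27305 promoters. CCGGAAG, for ETS factors, was in 20.4%, against 13.8% and 8.82%. AAGATGGCG, for YY1, was in 0 of 49, against 0.955% and 0.641%, and its first 3 letters can be the last 3 of the ETS letters. GGGCGG (GC box) was in 59.2%, against 62.3% and 42.3%, and CCAAT in 24.5%, against 34.5% and 33%. A match is a description of the letters and no sign that a factor binds there.

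To show where the letters stand, 30 bases around the matches are printed 5′ to 3′ on the gene's strand, with the matching letters in capitals, for 6 members, from all 5 complexes, that were called in opposite directions between lines. On GRCh38.p14 the NRF1 letters lie in SDHD within chr11:112086753-112086782, plus strand, in UQCRFS1 within chr19:29213163-29213192, minus strand and in ATP5F1C within chr10:7788145-7788174, plus strand. The ETS letters lie in NDUFS1 within chr2:206159583-206159612, minus strand, in SDHD within chr11:112086785-112086814, plus strand, in UQCRQ within chr5:132866577-132866606, plus strand and in COX5B within chr2:97646014-97646043, plus strand.
NDUFS1, ETS: ggctggggccaCTTCCGGcggaactgcggg
SDHD, NRF1: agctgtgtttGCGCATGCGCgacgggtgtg
SDHD, ETS: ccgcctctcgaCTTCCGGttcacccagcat
UQCRFS1, NRF1: gcgcctcctcGCGCCTGCGCcgtggttgga
UQCRQ, ETS: aatggtatctcCCGGAAGttacctcacgac
COX5B, ETS: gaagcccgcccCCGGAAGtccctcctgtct
ATP5F1C, NRF1: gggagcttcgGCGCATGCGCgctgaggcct
In NDUFS1 the ETS letters, on the reverse strand, end 150 bases before the start. In SDHD the NRF1 letters end 100 bases before the start and the ETS letters, on the reverse strand, end 70 bases before it. The matches of UQCRFS1, UQCRQ, COX5B and ATP5F1C end 21, 47, 30 and 12 bases before the start. ATP5MC1 holds neither set of letters in its window.

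The 20 members that hold NRF1 or ETS letters and the 29 that hold neither are set side by side. In Cal27 17 of 20 with the letters and 24 of 28 tested without them fell, at medians of -0.34 and -0.31. In A375 12 of 20 and 19 of 29 rose (medians 0.16 and 0.21), in Fadu 12 and 18 rose (0.15 and 0.20), and in Hth83 6 and 13 rose (0.10 and 0.07). SDHD, which holds both sets of letters, and ATP5MC1, which holds neither, both rose in A375 and Hth83, and in Fadu SDHD fell while ATP5MC1 rose.

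Genes that work with the 59 members were read from lists of textbook pathway members, and their counts stand beside the shares of 45.1%, 50.5%, 53.3% and 50.1% called over all genes in Cal27, A375, Fadu and Hth83. The 20 further subunits and cytochrome c mostly went the way of the members, with 19 falls and 0 rises in Cal27, 14 rises and 1 fall in A375, 10 rises and 1 fall in Fadu and 12 rises and 1 fall in Hth83. COX6A1 (-0.53), ATP5F1E (-0.51) and COX8A (-0.51) had the largest falls in Cal27, and cytochrome c itself (CYCS) rose in A375 (0.75 ± 0.04) and Fadu (0.42 ± 0.03). In Hth83 ATP5MC2, the third gene of the c subunit, fell (-0.36 ± 0.06) where ATP5MC1 and ATP5MC3 rose. The median of the list was -0.35 in Cal27, 0.25 in A375, 0.17 in Fadu and 0.22 in Hth83.

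Assembly factors, which build the complexes without remaining in them, of complexes I to IV had calls in both directions in every line. Of 16 complex I factors, all tested, 8 fell and 1 rose in Cal27 (56.2% called), 9 rose and 4 fell in A375, 11 rose and 1 fell in Fadu, and 6 rose and 3 fell in Hth83. NDUFAF8 fell in Cal27 (-0.49 ± 0.06) and rose in A375 (0.87 ± 0.07) and Hth83 (0.65 ± 0.07), while NDUFAF4 had the largest rise in Fadu (0.81 ± 0.09). Of 10 factors of complexes II and III, all tested, 5 fell and 1 rose in Cal27 (60% called), 3 fell and 1 rose in A375, 6 rose and 1 fell in Fadu and 3 rose and 1 fell in Hth83. BCS1L, which inserts the Rieske protein into complex III, rose in Fadu (1.03 ± 0.06), A375 (0.32 ± 0.07) and Hth83 (0.38 ± 0.08). Of the complex IV factors 7 fell and 3 rose of 22 tested in Cal27, 10 rose and 4 fell of 22 in A375, 6 rose and 4 fell of 21 in Fadu and 8 rose and 2 fell of 23 in Hth83. The shares called, 45.5% in Cal27, 63.6% in A375, 47.6% in Fadu and 43.5% in Hth83, were close to those over all genes in Cal27 and below them in Fadu and Hth83. The complex V list, assembly factors and an inhibitor, has 5 genes. In Cal27 1 fell and 0 rose of 4 tested (25% called). All 5 were tested in the other lines. There 3 rose and 0 fell in A375 (60%), 2 rose and 1 fell in Fadu (60%) and 2 rose and 0 fell in Hth83 (40%). TMEM70, which helps to build ATP synthase, rose in A375 (0.61 ± 0.06), Fadu (0.53 ± 0.06) and Hth83 (0.35 ± 0.06). The ATP synthase inhibitor ATP5IF1 fell in Cal27 (-0.44 ± 0.05) and rose in A375 (0.17 ± 0.06) and Fadu (0.19 ± 0.05).

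Of 14 regulators of mitochondrial biogenesis 14 were tested in A375 and 13 in each other line. In Cal27 3 rose and 4 fell (53.8% called), in A375 6 rose and 1 fell (50%), in Fadu 6 rose and 4 fell (76.9%) and in Hth83 8 rose and 1 fell (69.2%), so that the share in A375 was close to that over all genes. PPARGC1B, a coactivator of the PGC-1 family known to raise transcription of respiratory chain genes, rose in all 4 lines. Its log2 change was 0.85 ± 0.09 in Cal27, 0.71 ± 0.08 in A375, 0.69 ± 0.08 in Fadu and 1.15 ± 0.07 in Hth83. A link between PPARGC1B and the subunit mRNAs was not tested. GABPB1, the partner of the ETS factor GABPA, fell in Cal27 (-0.37 ± 0.06), where GABPA rose (0.30 ± 0.06). Of 13 citric acid cycle enzymes, all tested, 9 fell and 0 rose in Cal27 (69.2% called), 6 rose and 1 fell in A375, 5 rose and 5 fell in Fadu and 6 rose and 4 fell in Hth83. SUCLG2, the GTP-forming subunit of succinyl-CoA synthetase, one step before complex II in the cycle, fell in A375 (-0.60 ± 0.04), Fadu (-0.76 ± 0.06) and Hth83 (-0.84 ± 0.07). Of the alternative subunit isoforms 3 or 4 of 8 were tested per line, and NDUFA4L2, an isoform that hypoxia is known to induce, fell in A375 (-1.34 ± 0.18) and Hth83 (-2.65 ± 0.49).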

How the data were processed

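A SMARTER mRNA-Seq kit and a HiSeq3000 gave the 24 libraries, per the labels' protocols. HISAT2 was the aligner and GRCh38 the build, per the submitters' processing notes; counter, annotation and strand setting: not given in the sources used here. The authors deposited raw counts per gene and TPM, and the TPM equal the deposited counts over 1 length per gene, rescaled per library. That length followed the genomic span of the gene with introns.

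Counts were tested in R 4.3.3 with edgeR 4.0.16 (filterByExpr with minimum count 10 and minimum total 15, TMM, robust quasi-likelihood), 3 CAP against 3 Control libraries per line, with Benjamini-Hochberg adjustment over all genes tested and a threshold of 0.05. All 24 libraries were also fitted together to test, by F, whether the treatment effect differed between lines. The biological coefficient of variation was 5.07% to 6.17%. The members, lists and tests were chosen with earlier results of these data known. Members are given library by library where they led their complex in calls, size or interaction p, are core subunits, encode the c subunit, or went against their line; not every such value is printed. Gene names came from a symbol table (61369 of 61533 IDs) and GENCODE 29 (149 more), gene positions from GENCODE 29 and promoter sequences from RefSeq.

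The alternatives were DESeq2 1.42.0, RLE or total-only scaling, no filter or a CPM of 1 in 3 libraries, a replicate block, the joint fit, limma 3.58.1 on log2(TPM + 1) and log2(TPM + 0.1) with a TPM of 1 in 3 libraries, each library left out and a length trend removed. The tests were run on simulated data with known changes. Counting intervals were not needed, since replicate spread exceeded counting error.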

Additional observations from a re-analysis of the deposited data

Results flagged for a closer look

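The effect of CAP on subunit mRNAs differed between the lines by the interaction test of edgeR's joint fit for 56 of the 59 members, against 56.9% of all genes tested. The adjusted p-values below are from that F test over the 4 lines, and the values of each line are in the report.

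In complex I they were 8.62e-17 for NDUFB9, 1.79e-14 for NDUFS8, 7.7e-13 for NDUFS6, 4.36e-11 for NDUFV1, 3e-09 for NDUFS4, 2.45e-08 for NDUFC1, 1.19e-07 for NDUFB3, 8.89e-06 for NDUFA10, 0.000545 for NDUFS1 and 0.00153 for NDUFA3. NDUFB9, NDUFS6 and NDUFB3 fell in Cal27 and rose in the 3 other lines, and NDUFA10 fell in A375 and rose in Fadu. In complex II they were 1.08e-09 for SDHC, 8.57e-07 for SDHD, 8.54e-06 for SDHB and 0.0369 for SDHA, whose counts are uncertain beside its copies.

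In complex III they were 8.51e-14 for UQCRFS1, 1.16e-09 for UQCRQ, 6.05e-08 for UQCRC2 and 6.68e-08 for UQCRC1. In complex IV they were 2.81e-13 for COX4I1, 4.75e-09 for COX5A and 1.67e-08 for COX5B. In complex V they were 8.41e-17 for ATP5MC3, 3.23e-16 for ATP5F1D, 7.5e-11 for ATP5MC1, 7.31e-10 for ATP5F1B, 4.24e-09 for ATP5F1C and 4.38e-07 for ATP5F1A. ATP5F1C fell in Cal27 and Fadu and rose in A375 and Hth83, but its A375 and Hth83 calls were not stable.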

How the results depend on the processing

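In Cal27 the median change of the members was -0.243 with the length trend removed, -0.242 with total-only scaling, -0.311 with the CPM filter, -0.086 on log2(TPM + 1) and -0.089 on log2(TPM + 0.1), and -0.334 to -0.293 with each library left out. On both TPM scales 15 were called there, 2 higher and 13 lower, beside 39.4% and 38.7% of all genes, and 1 was higher with total-only scaling. In A375 the median was 0.124 with total-only scaling, 0.169 in the joint fit, 0.104 and 0.108 on the TPM scales and 0.170 to 0.231 with each library left out. There 24 were called on both TPM scales, 20 higher and 4 lower, beside 35.3% and 34.8% of all genes. With each library left out 1 to 2 fell. In Fadu the median was 0.096 with the length trend removed and 0.27 with total-only scaling. In Hth83 it was 0.156 with total-only scaling and 0.183 on both TPM scales. On log2(TPM + 1) 28 rose and 2 fell there, beside 37.8% of all genes called. On log2(TPM + 1) and log2(TPM + 0.1) the changes in Cal27 had the other sign for 12 members, of which 6 had been called: NDUFB2 (0.021 and 0.023), SDHB (0.008 and 0.008), SDHD (0.029 and 0.031), UQCRC2 (0.096 and 0.097), ATP5F1B (0.041 and 0.041) and ATP5MC1 (0.058 and 0.058). The cause of these differences was not tested.

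Of the 87 calls of members described library by library, 16 were lost when some library was left out, 33 on a TPM scale (5 of them with the other sign), 11 with total-only scaling and 4 by DESeq2. Same-numbered libraries of CAP and Control correlated at -0.023 to 0.036 in their deviations from the group means. These values show no pairing by number, but they cannot exclude one, since the counting noise of low genes enters them. With the replicate block 49, 41, 40 and 30 members were called in Cal27, A375, Fadu and Hth83. Depth limits NDUFA7, NDUFV2 and NDUFA13 most, with 371, 1652 and 3017 counts over the 24 libraries, and nothing here reaches protein or respiration.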
